A study of Saccharomyces cerevisiae with 6 samples.

Results

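The tricarboxylic acid (TCA) cycle, the glyoxylate cycle and the entry of pyruvate into mitochondria were described through 38 genes of budding yeast, Saccharomyces cerevisiae. The genes were chosen by their place in these pathways, as a fixed list of systematic names, from the 5917 transcript rows of the deposited table. Earlier results of these data were known when the list was made, which limits comparisons of its shares with those of all genes. All 38 were among the 5707 rows tested. The list holds the enzymes of the mitochondrial cycle with the exception of succinate dehydrogenase, their cytosolic and peroxisomal isozymes, the glyoxylate enzymes, the pyruvate dehydrogenase subunits, the mitochondrial pyruvate carriers, the retrograde regulators Rtg1, Rtg2 and Rtg3, and a set of carriers of cycle intermediates and acetyl units.

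Poly(A)-selected RNA was sequenced from 3 cultures treated with 20 uM edelfosine, a synthetic ether lysophospholipid, for 60 minutes and from 3 cultures given its vehicle, 0.095% ethanol, for the same time. Edelfosine replicates 1 and 2 and vehicle replicates 1 and 2 were W303, and edelfosine replicate 3 and vehicle replicate 3 were BY4741; both are laboratory strains labelled as wild type, and no deletion or transgene is given for any culture. All cultures were in log phase in synthetic defined medium with shaking; the carbon source is not given in the sources used here. The labels call the replicates biological.

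In the TCA cycle, acetyl-CoA is joined to oxaloacetate to form citrate, which is oxidised stepwise in the mitochondrial matrix to malate and back to oxaloacetate, yielding reduced cofactors for respiration. The glyoxylate cycle shares its first and last steps but bypasses the decarboxylations through isocitrate lyase and malate synthase, and lets yeast build sugars from acetate or ethanol. Yeast growing on glucose ferments most of its pyruvate and represses many of these genes. When respiration fails, the retrograde pathway, in which Rtg2 acts upstream of the DNA-binding pair Rtg1 and Rtg3, is known to activate CIT2 and the genes for the early cycle steps.

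The values were TPM, transcript abundances relative to transcript length and to the rest of the library, so that levels of different genes can be set side by side; the sequencing depth behind them is unknown. Between 5550 and 5717 rows reached 1 TPM in each library. Libraries were put on a common scale by trimmed-mean factors, which were 1.20 to 1.25 in the edelfosine libraries and 0.715 to 0.891 in the vehicle libraries, and levels below are scaled TPM. On this scale the median gene differed by 0.0088 on log2 (edelfosine minus vehicle), while in TPM as deposited it differed by 0.55, so every change is relative to the bulk of the transcriptome. Log2 changes were fitted on log2(scaled TPM + 1), which understates the change of low genes, and a gene was called at an adjusted p under 0.05 in the limma fit with strain as a term.

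Of the 38 genes, 20 rose, 7 fell and 11 did not pass the test. Among all 5707 genes tested 27.3% were called higher and 27.3% lower; the shares of the 38 were 52.6% and 18.4%. The median log2 change of the 38 was 0.70, against 0.0088 over all genes. A change of at least 2-fold was called for 15 higher and 4 lower genes, against 14.1% and 15.9% of all genes. In 19 genes every edelfosine library lay above every vehicle library and in 7 every one lay below, and in 12 the groups overlapped; over all genes the shares without overlap were 30.3% above and 31.3% below. Of the 20 that rose, 4 (MLS1, SFC1, YAT1 and CRC1) were under 1 TPM as deposited in at least 1 vehicle library and so passed the filter on low values, which used the deposited values, at least in part through the edelfosine libraries; the other 34 genes divided into 16 higher, 7 lower and 11 not called. With TPM as deposited, 27 of the 38 were called higher and 4 lower, against 49.7% and 13.3% of all genes.

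**Figure D1:**
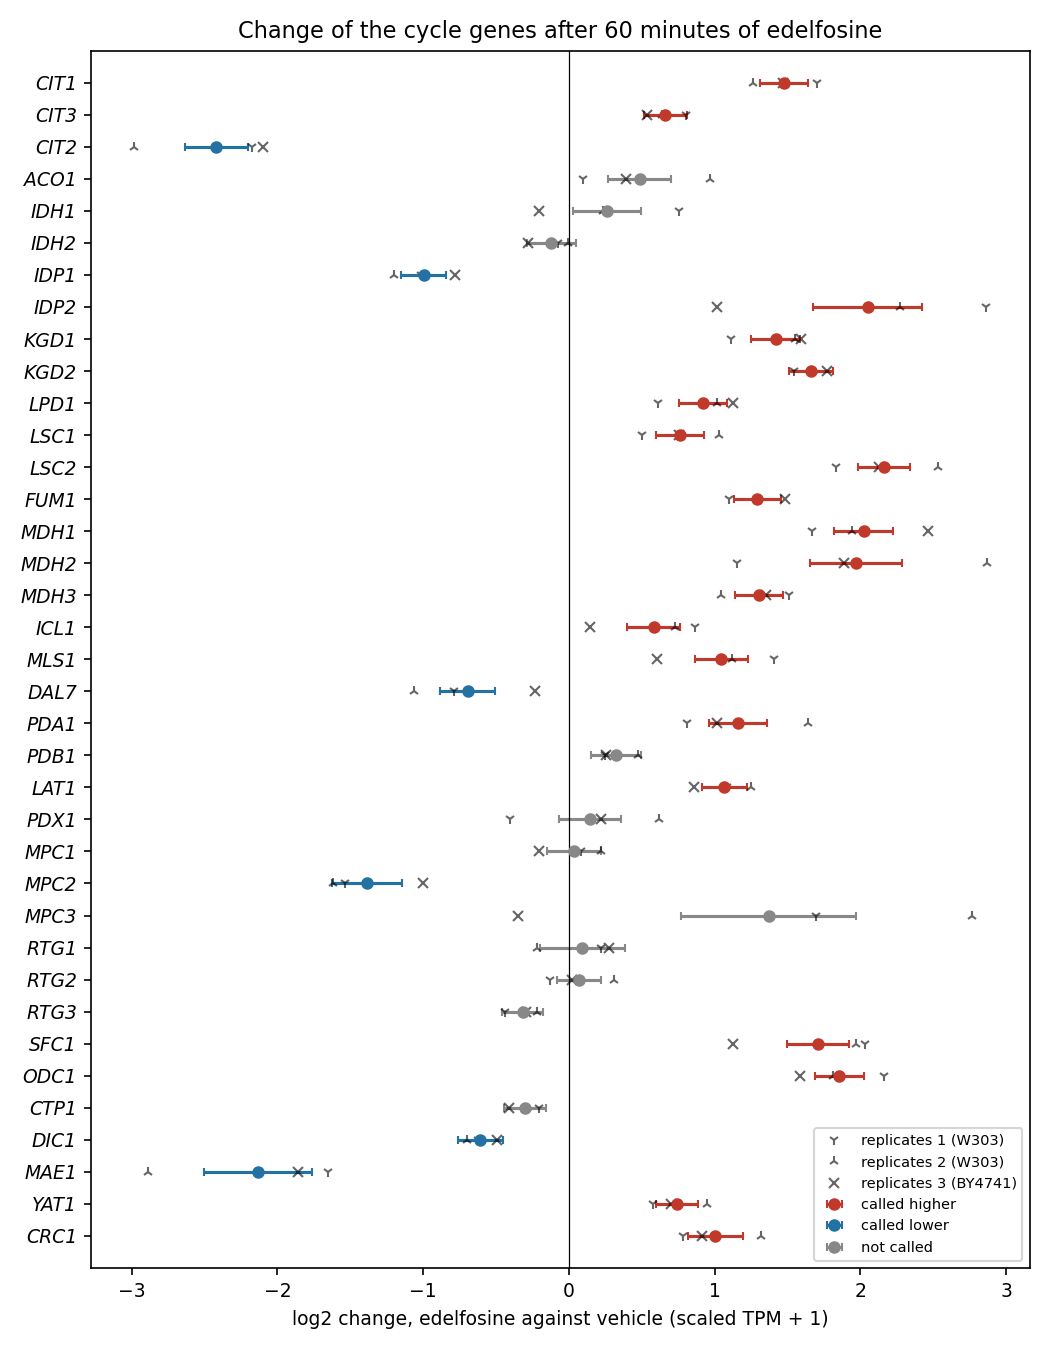
Log2 change of each gene described (edelfosine minus vehicle, on log2(scaled TPM + 1), points with standard errors; small marks are the differences within same-numbered libraries), ordered by role. The changes shown run from -2.42 for CIT2 to 2.16 for LSC2, and the 20 genes called higher lie to the right of 0.

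Several cycle steps have an isozyme in the mitochondrion and another in the peroxisome or cytosol. The ends of the coding sequences show which of these carry the serine-lysine-leucine tail, a signal known to direct proteins into peroxisomes. The last 30 bases of each gene on its coding strand, in the R64 genome, are printed below with the last 3 sense codons in capitals, ahead of the stop codon.
CIT2, chrIII:120946-120975, minus strand: ttggtcaaaaacattgaaAGCAAACTAtag
CIT1, chrXIV:629622-629651, minus strand: ttggtaaagaaaatcgaaAGTAAGAACtaa
CIT3, chrXVI:557808-557837, plus strand: accaaagcaagcaatgttAACAAGTTGtaa
MDH3, chrIV:315357-315386, minus strand: agtttcatcctagactctTCCAAGCTAtga
MDH1, chrXI:280098-280127, plus strand: aagggtgtcaactttgttGCTAGTAAAtag
MDH2, chrXV:81787-81816, minus strand: ttcgttgcatcgagatctGCATCATCTtaa
MLS1, chrXIV:407993-408022, plus strand: gcgacgcccactgatttgAGCAAATTGtga
DAL7, chrIX:413015-413044, minus strand: gccaaaccagttgacttaAGTAAATTAtag
The 3 codons read serine-lysine-leucine in CIT2, MDH3, MLS1 and DAL7 and did not in CIT1, CIT3, MDH1 and MDH2. Identity between the aligned coding sequences was 73.7% for CIT1 and CIT2, 68.8% for CIT1 and CIT3, 73.0% for MDH1 and MDH2, 66.4% for MDH1 and MDH3 and 75.0% for MLS1 and DAL7. No coding sequence of the 38 overlapped another annotated gene.

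Citrate synthases condense acetyl-CoA with oxaloacetate, and their 3 genes did not move together. CIT1 (YNR001C), the main mitochondrial enzyme, had 339, 277 and 376 TPM in the edelfosine libraries, against 104, 115 and 135 TPM in the vehicle libraries. The groups did not overlap, and CIT1 rose by 1.48 ± 0.16 on log2 (SE, adjusted p = 0.00111). CIT2 (YCR005C), the peroxisomal enzyme of the glyoxylate cycle and the classic target of the retrograde pathway, had 71.9, 49.7 and 68.9 TPM in the edelfosine libraries, against 329, 400.1 and 299 TPM in the vehicle libraries. Every edelfosine library was far below every vehicle library, and CIT2 fell by 2.42 ± 0.22 on log2 (SE, adjusted p = 0.000647). CIT3 (YPR001W), a mitochondrial citrate and methylcitrate synthase, was low throughout, at 5.21 ± 0.841 TPM with edelfosine and 2.91 ± 0.178 TPM with vehicle (SD, n = 3 each). It rose by 0.66 ± 0.15 (SE, adjusted p = 0.00998), a call that was lost without vehicle replicate 2 (0.62, adjusted p = 0.0562).

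CIT2 therefore made up 17.2, 15.0 and 15.3% of the citrate synthase TPM in the edelfosine libraries, against 75.4, 77.2 and 68.4% in the vehicle libraries. The log2 ratio of CIT2 to CIT1 averaged -2.37 ± 0.13 with edelfosine and 1.52 ± 0.34 with vehicle (SD, n = 3 each), a difference of -3.90. In an exact two-sided permutation test over the 6 libraries this ratio gave p = 0.1, the smallest that 3 against 3 can give; adjusted over the 16 isozyme and subunit ratios computed it was 0.145. The summed level of the 3 genes was 399 ± 60.6 TPM with edelfosine and 464 ± 47.4 TPM with vehicle, a log2 ratio of -0.21 that turned to 0.40 in TPM as deposited.

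**Figure D2:**
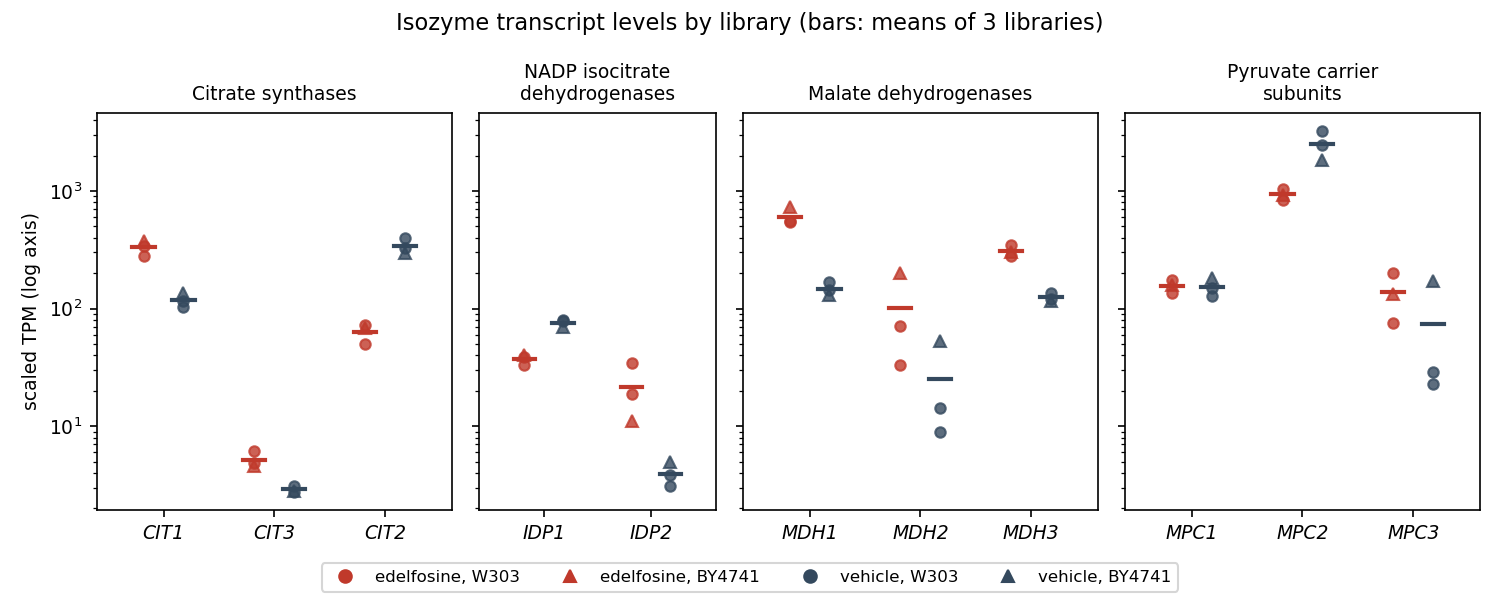
Levels of isozyme genes in each library (scaled TPM, log axis; short bars are means), edelfosine libraries left of vehicle libraries for each gene. CIT1 sits between 277 and 376 TPM with edelfosine and between 104 and 135 TPM with vehicle, while CIT2 lies below its vehicle values in every edelfosine library.

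Rtg1 and Rtg3 bind a short element called the R box, GGTCAC, which is known upstream of CIT2. It was searched on both strands in the 300 bases before each start codon and, after that window of CIT2 held none, in 500 bases. In the stretch from 500 to 201 bases before the start codon, printed in the direction of the gene, the 2 matches are in capitals and begin 346 and 312 bases before it.
CIT2, chrIII:122529-122828, minus strand: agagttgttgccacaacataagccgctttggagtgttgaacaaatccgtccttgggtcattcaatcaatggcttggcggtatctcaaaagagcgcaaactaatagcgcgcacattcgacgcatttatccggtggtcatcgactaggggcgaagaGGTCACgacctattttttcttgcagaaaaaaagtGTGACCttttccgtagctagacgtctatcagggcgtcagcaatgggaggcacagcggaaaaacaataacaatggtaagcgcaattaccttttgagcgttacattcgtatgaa
In 500 bases, 11 of the 38 genes (28.9%) had at least 1 R box, against 9.52% of 6006 promoters; in 300 bases the counts were 4 of 38 (10.5%) and 5.19% of 6007. The 11 were CIT2, IDP1 and DIC1, which fell, IDP2, LAT1, ODC1 and CRC1, which rose, and ACO1, IDH1, MPC3 and RTG3, which were not called. A match is a stretch of letters and does not show binding.

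None of the 3 regulator genes was called on the scaled values. RTG1 (YOL067C) averaged 21.5 ± 7.26 TPM with edelfosine and 19.5 ± 3.78 TPM with vehicle, with an adjusted p of 0.807. RTG2 (YGL252C) averaged 29.7 ± 2.26 TPM with edelfosine and 28.3 ± 2.39 TPM with vehicle (SD, n = 3 each), with an adjusted p of 0.729; in TPM as deposited RTG2 was called higher (0.66, adjusted p = 0.0245). RTG3 (YBL103C) averaged 12.7 ± 1.44 TPM with edelfosine and 16.1 ± 2.02 TPM with vehicle (-0.32 ± 0.14, SE, adjusted p = 0.0996). Among 7 partners and further targets of the pathway, 2 rose, 2 fell and 3 were not called (median log2 change 0.12), near the 27.3% of all genes called in each direction. Those that fell were DLD3, a cytosolic D-2-hydroxyglutarate and lactate dehydrogenase (27.4 ± 6.33 TPM with edelfosine, 129 ± 18.7 TPM with vehicle, -2.22, adjusted p = 0.000957), and ATO3, a plasma membrane ammonium exporter (3.21 ± 1.74 TPM with edelfosine, 23.4 ± 3.86 TPM with vehicle, -2.61, adjusted p = 0.000944). Both are known retrograde targets and were the only targets among the 7, the others being partners. Those that rose were the 14-3-3 genes BMH2 (0.57, adjusted p = 0.0276) and BMH1 (0.52, adjusted p = 0.0496), calls that were lost in some alternatives, among them the W303 libraries alone.

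The steps from citrate to alpha-ketoglutarate are the part of the cycle that feeds glutamate synthesis. ACO1 (YLR304C), aconitase, had 86.3, 141 and 118 TPM with edelfosine, against 80.8, 71.3 and 89.9 TPM with vehicle. Edelfosine replicate 1 lay within the vehicle range, and ACO1 was not called (0.48 ± 0.22, SE, adjusted p = 0.101), although it was without edelfosine replicate 1 (0.66, adjusted p = 0.0235) and in TPM as deposited (1.09, adjusted p = 0.00621). IDH1 (YNL037C) and IDH2 (YOR136W), the subunits of NAD-dependent isocitrate dehydrogenase, were not called: IDH1 averaged 225 ± 61.2 TPM with edelfosine and 184 ± 18.6 TPM with vehicle (0.26, adjusted p = 0.373; 0.87, adjusted p = 0.0212 and called higher in TPM as deposited). IDH2 averaged 183 ± 11.7 TPM with edelfosine and 201 ± 28.7 TPM with vehicle (-0.12, adjusted p = 0.568; 0.49 in TPM as deposited).

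The NADP-dependent isocitrate dehydrogenases moved in opposite directions. IDP1 (YDL066W), the mitochondrial enzyme, had 39.0, 33.4 and 40.5 TPM with edelfosine, against 79.8, 78.0 and 70.3 TPM with vehicle, and fell by 1.00 ± 0.16 on log2 (SE, adjusted p = 0.00284; -0.40 and adjusted p = 0.0776 in TPM as deposited). IDP2 (YLR174W), the cytosolic enzyme that supplies NADPH on non-fermentable carbon, had 34.4, 18.7 and 11.0 TPM with edelfosine, against 3.87, 3.09 and 4.93 TPM with vehicle. All edelfosine libraries were above the vehicle libraries but spread widely, and IDP2 rose by 2.05 ± 0.37 (SE, adjusted p = 0.00473). Of the summed IDP1 and IDP2 TPM, IDP2 held 46.9, 35.9 and 21.3% with edelfosine, against 4.63, 3.81 and 6.55% with vehicle.

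From alpha-ketoglutarate onward all 7 genes rose (KGD1, KGD2, LPD1, LSC1, LSC2, FUM1 and MDH1), with a median log2 change of 1.42, against 27.3% of all genes called higher. KGD1 (YIL125W) and KGD2 (YDR148C) encode the first and the second enzyme of the alpha-ketoglutarate dehydrogenase complex. KGD1 averaged 24.6 ± 3.90 TPM with edelfosine and 8.50 ± 0.462 TPM with vehicle (SD, n = 3 each; 1.42 ± 0.17, SE, adjusted p = 0.00127). KGD2 averaged 98.2 ± 8.58 TPM with edelfosine and 30.3 ± 2.50 TPM with vehicle (1.66 ± 0.15, SE, adjusted p = 0.000658). LPD1 (YFL018C), the dihydrolipoamide dehydrogenase that this complex shares with pyruvate dehydrogenase, rose less (0.92 ± 0.17, SE, adjusted p = 0.00465), at 132 ± 20.4 TPM with edelfosine and 68.6 ± 2.86 TPM with vehicle.

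The subunits of succinyl-CoA ligase, which makes ATP from succinyl-CoA, rose unequally. LSC2 (YGR244C), the beta subunit, had 143, 187 and 201 TPM with edelfosine, against 39.5, 31.5 and 45.2 TPM with vehicle, and rose by 2.16 ± 0.18 on log2 (SE, adjusted p = 0.000530), the highest change of the 38. LSC1 (YOR142W), the alpha subunit, had 111, 139 and 126 TPM with edelfosine, against 78.5, 67.6 and 74.6 TPM with vehicle, and rose by 0.76 ± 0.17 (SE, adjusted p = 0.00894). The log2 ratio of LSC2 to LSC1 was 0.48 ± 0.16 with edelfosine and -0.92 ± 0.19 with vehicle (SD, n = 3 each; difference 1.40, exact permutation p = 0.1). LSC2 and MPC3 lie tail to tail on chromosome VII, with 259 bases between their coding ends. Other genes of the 38 had closer tail-to-tail neighbours, among them YAT1 (80 bases), CTP1 (116) and IDP1 (127). Whether the counting used strand is not given in the sources used here. FUM1 (YPL262W), fumarase, averaged 87.4 ± 3.84 TPM with edelfosine and 35.5 ± 6.40 TPM with vehicle and rose by 1.29 ± 0.16 (SE, adjusted p = 0.00143).

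Malate dehydrogenases interconvert malate and oxaloacetate in 3 compartments, and all 3 genes rose. MDH1 (YKL085W), the mitochondrial enzyme, had 539.6, 551 and 729 TPM with edelfosine, against 169, 143 and 131 TPM with vehicle (2.02 ± 0.20, SE, adjusted p = 0.000892). MDH3 (YDL078C), the peroxisomal enzyme, had 348, 281 and 300.4 TPM with edelfosine, against 121, 136 and 117 TPM with vehicle (1.30 ± 0.17, SE, adjusted p = 0.00151). Both were well separated between the groups. MDH2 (YOL126C), the cytosolic enzyme of gluconeogenesis, had 32.8, 71.6 and 199 TPM with edelfosine, against 14.2, 8.94 and 53.1 TPM with vehicle. BY4741 was highest in both groups, so the groups overlapped, but each edelfosine library exceeded the vehicle library of its number; MDH2 rose by 1.97 ± 0.32 with strain in the fit (SE, adjusted p = 0.00312) and was not called without it (adjusted p = 0.0766). Summed malate dehydrogenase TPM was 1018 ± 183 with edelfosine and 298 ± 9.14 with vehicle (log2 ratio 1.77, and 2.37 in TPM as deposited). MDH3 held 31.1 ± 6.68% of it with edelfosine and 41.9 ± 4.57% with vehicle.

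MDH1 was the most abundant cycle transcript in all edelfosine libraries. Its promoter is shown with 2 elements searched over all promoters, CCAAT, the core bound by the Hap complex of respiratory genes, and AGGGG, the stress response element. In the 300 bases before its start codon the matches, on either strand, are in capitals: CCAAT, read here as ATTGG, begins 247 and 129 bases before the start and AGGGG, read as CCCCT, 274 bases before it.
MDH1, chrXI:278823-279122, plus strand: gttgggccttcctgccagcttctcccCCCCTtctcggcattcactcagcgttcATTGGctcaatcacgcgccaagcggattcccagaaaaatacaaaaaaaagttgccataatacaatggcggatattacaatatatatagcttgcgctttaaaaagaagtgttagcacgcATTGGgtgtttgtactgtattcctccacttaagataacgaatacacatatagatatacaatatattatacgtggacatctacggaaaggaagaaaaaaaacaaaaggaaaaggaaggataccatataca
CCAAT occurred in 22 of the 38 promoters (57.9%), against 41.8% of 6007, and AGGGG in 10 of the 38 (26.3%), against 22.2%. Both elements are short and common, and these counts describe the windows alone.

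**Figure D3:**
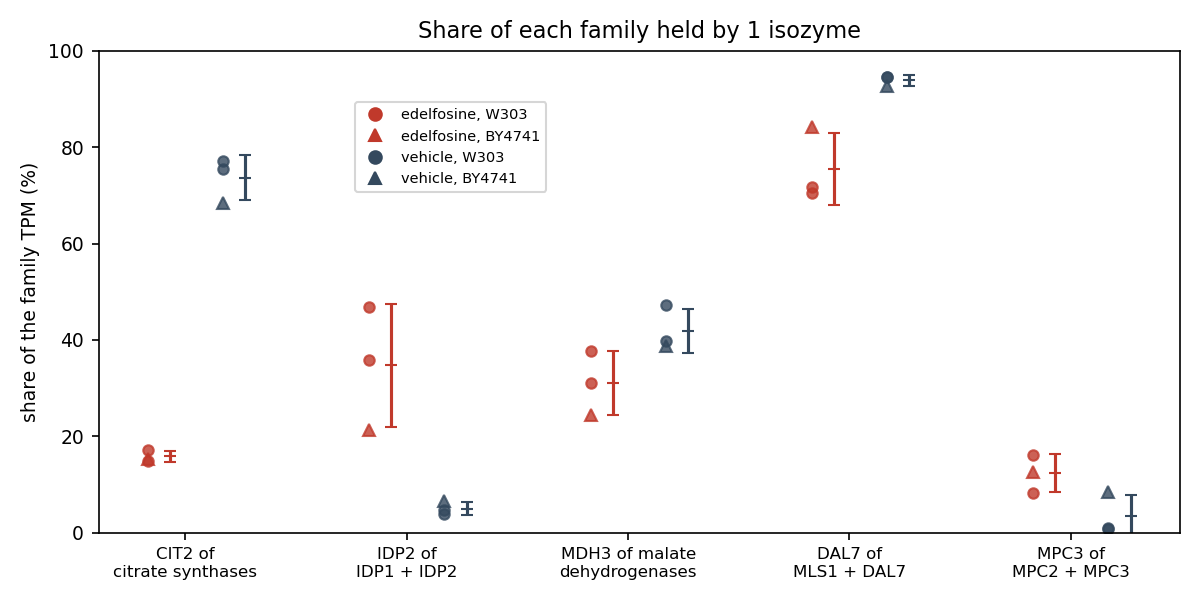
Share of each isozyme in the summed TPM of its family (percent; points are libraries, bars mean and SD, cut at 0; edelfosine left of vehicle). CIT2 held a smaller share in every edelfosine library, at 15.8 ± 1.20%, against 73.7 ± 4.65% with vehicle, and IDP2 a larger one.

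Over 14 enzymes of the mitochondrial cycle, 9 rose, 2 fell and 3 were not called, against 27.3% of all genes called in each direction. The 14 include the NADP-dependent IDP1, which fell. Summed TPM of the 14 was 2152 ± 158 with edelfosine and 1095 ± 65.9 with vehicle (log2 ratio 0.97, and 1.57 in TPM as deposited). The peroxisomal pair CIT2 and MDH3 summed to 373 ± 44.6 TPM with edelfosine and 467 ± 61.8 TPM with vehicle (-0.32, turning to 0.29 in TPM as deposited). The cytosolic IDP2, MDH2 and ICL1 summed to 135 ± 76.7 TPM with edelfosine and 37.3 ± 27.5 TPM with vehicle (1.85, and 2.38 in TPM as deposited). Succinate dehydrogenase, which oxidises succinate between the ligase and fumarase, lies outside the 38. Of 11 genes for its subunits, their paralogues and its assembly factors, 11 rose, with a median of 1.50, against 27.3% of all genes called higher. The named examples were SDH9, a paralogue of the catalytic subunit (8.70 ± 1.60 TPM with edelfosine, 0.524 ± 0.0346 TPM with vehicle, 2.66, adjusted p = 0.000232), which passed the filter on low values only through the edelfosine libraries, SHH3, a paralogue of the membrane anchor (2.66), SDH5, which attaches the flavin (2.47), and SDH7, an assembly factor (1.50). The calls of SDH1, SDH2, SDH3, SDH4 and SHH4 were lost when the W303 libraries were fitted alone and when some single libraries were left out, among them vehicle replicate 3 (SDH1, adjusted p up to 0.208).

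The enzymes particular to the glyoxylate cycle were low. ICL1 (YER065C), isocitrate lyase, had 13.0, 11.2 and 12.0 TPM with edelfosine, against 6.68, 6.37 and 10.8 TPM with vehicle, the last being BY4741. It rose by 0.58 ± 0.18 on log2 (SE, adjusted p = 0.0354), a call lost without any one of edelfosine replicates 1 and 2 and vehicle replicates 1 and 2 (adjusted p up to 0.141) and without the strain term (0.0520). MLS1 (YNL117W), its malate synthase, had 4.87, 3.98 and 2.20 TPM with edelfosine, against 1.22, 1.29 and 1.11 TPM with vehicle (1.04 ± 0.18, SE, adjusted p = 0.00402). DAL7 (YIR031C), the malate synthase of allantoin degradation, had 11.7, 10.1 and 11.6 TPM with edelfosine, against 20.9, 22.2 and 13.8 TPM with vehicle, and fell by 0.69 ± 0.19 (SE, adjusted p = 0.0209). That call was lost in TPM as deposited (-0.12) and without vehicle replicate 1 or 2 (adjusted p = 0.0892 and 0.0968). DAL7 remained the larger of the 2 malate synthase transcripts, at 75.5 ± 7.50% of their sum with edelfosine and 93.9 ± 1.10% with vehicle.

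Pyruvate dehydrogenase turns pyruvate into acetyl-CoA at the entry to the cycle, and its subunit genes were split. PDA1 (YER178W), the E1 alpha subunit, had 145, 197 and 195 TPM with edelfosine, against 82.1, 62.4 and 95.9 TPM with vehicle (1.16 ± 0.20, SE, adjusted p = 0.00387). LAT1 (YNL071W), the E2 acetyltransferase, had 151, 158 and 148 TPM with edelfosine, against 70.8, 65.9 and 81.2 TPM with vehicle (1.06 ± 0.15, SE, adjusted p = 0.00219). PDB1 (YBR221C), the E1 beta subunit, averaged 172 ± 20.0 TPM with edelfosine and 138 ± 26.0 TPM with vehicle and was not called (0.33, adjusted p = 0.150). PDX1 (YGR193C), which holds LPD1 in the complex, averaged 28.6 ± 4.82 TPM with edelfosine and 25.9 ± 5.14 TPM with vehicle and was not called (0.15, adjusted p = 0.589). The log2 ratio to PDA1 differed by -0.83 for PDB1 and -1.03 for PDX1, without overlap of the groups (exact permutation p = 0.1 each), and by -0.09 for LAT1 (p = 0.5). In TPM as deposited PDB1 and PDX1 were also called higher (0.93 and 0.73).

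Among 9 genes for the regulation and lipoylation of these complexes, 4 rose, 1 fell and 4 were not called (median 0.38), against 27.3% of all genes called in each direction. KGD4, which recruits LPD1 to the alpha-ketoglutarate complex, rose by 1.63 (adjusted p = 0.000966). The kinase PKP1 (1.01), which inactivates PDA1, and the phosphatases PTC6 (0.96) and PTC5 (0.50), which reverse this, rose too, and each call was lost without vehicle replicate 1, that of PKP1 also without vehicle replicate 2 and that of PTC5 also in W303 alone and without vehicle replicates 2 or 3 or edelfosine replicate 3. LIP5, lipoate synthase, fell by 0.45 (adjusted p = 0.0436; 0.14 in TPM as deposited); the call was lost in W303 alone (adjusted p = 0.0746), with the replicate number as a block (0.0604) and without any single library (adjusted p = 0.0646 to 0.139).

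The mitochondrial pyruvate carrier is a dimer of MPC1 with either MPC2, the partner used in fermentation, or MPC3, the partner used in respiration. MPC2 (YHR162W) had 843, 1049 and 923 TPM with edelfosine, against 2451, 3232 and 1845 TPM with vehicle. It was the most abundant of the 38 transcripts, lay lower in every edelfosine library, and fell by 1.39 ± 0.24 on log2 (SE, adjusted p = 0.00401). MPC1 (YGL080W) averaged 155 ± 19.6 TPM with edelfosine and 153 ± 27.9 TPM with vehicle and was not called (0.03, adjusted p = 0.890), although it was called higher in TPM as deposited (0.64, adjusted p = 0.0275). MPC3 (YGR243W) had 75.6, 202 and 134 TPM with edelfosine, against 22.7, 28.8 and 170.3 TPM with vehicle. The vehicle library of BY4741 stood apart, and MPC3 was not called (1.37 ± 0.60, SE, adjusted p = 0.0948). The difference within same-numbered libraries was 1.69 and 2.77 in the W303 pairs and -0.35 in the BY4741 pair; MPC3 was called in the W303 libraries alone (2.23, adjusted p = 0.0165), without edelfosine replicate 3 (2.25, adjusted p = 0.0147), without vehicle replicate 3 (2.23, adjusted p = 0.0198) and in TPM as deposited (1.97, adjusted p = 0.0224). Its share of the MPC2 and MPC3 sum was 8.23, 16.2 and 12.6% with edelfosine, against 0.918, 0.884 and 8.45% with vehicle. Summed carrier TPM was 1231 ± 186 with edelfosine and 2736 ± 617 with vehicle (log2 ratio -1.15, and -0.52 in TPM as deposited).

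Carriers that exchange cycle intermediates across the inner membrane did not share a direction. ODC1 (YPL134C), an oxodicarboxylate carrier, had 45.9, 36.8 and 39.4 TPM with edelfosine, against 9.45, 9.76 and 12.5 TPM with vehicle (1.86 ± 0.17, SE, adjusted p = 0.000658). SFC1 (YJR095W), the succinate-fumarate carrier used on acetate and ethanol, had 4.18, 4.72 and 3.80 TPM with edelfosine, against 0.269, 0.458 and 1.20 TPM with vehicle (1.71 ± 0.21, SE, adjusted p = 0.00137). DIC1 (YLR348C), the dicarboxylate carrier, averaged 79.9 ± 9.14 TPM with edelfosine and 122 ± 10.6 TPM with vehicle. It fell by 0.61 ± 0.16 (SE, adjusted p = 0.0175), a call lost in TPM as deposited (-0.0035), in W303 alone (adjusted p = 0.0527) and without edelfosine replicate 3, vehicle replicate 2 or vehicle replicate 3 (adjusted p up to 0.0719). CTP1 (YBR291C), the citrate carrier, averaged 18.3 ± 3.05 TPM with edelfosine and 22.7 ± 2.72 TPM with vehicle and was not called (-0.30, adjusted p = 0.114; 0.28 in TPM as deposited).

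Of 7 further carriers and isozymes, 4 rose and 3 fell (median 0.50), against 27.3% of all genes called in each direction. ODC2, the paralogue of ODC1 with 69.2% coding identity, moved the other way, with 41.9 ± 7.62 TPM with edelfosine and 293 ± 49.2 TPM with vehicle (-2.78, adjusted p = 0.000419). The other two that fell were YHM2, a citrate and alpha-ketoglutarate carrier (-2.25, adjusted p = 0.00112), and OAC1, an oxaloacetate carrier (-2.47, adjusted p = 0.0126), whose call was lost in W303 alone (adjusted p = 0.0688) and without edelfosine replicate 3, vehicle replicate 2 or vehicle replicate 3 (adjusted p up to 0.0693). ACH1, a mitochondrial CoA transferase for acetate (2.24, adjusted p = 0.000424), and ICL2, the methylisocitrate lyase of propionate breakdown (1.69, adjusted p = 0.000626), rose.

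Malic enzyme converts malate to pyruvate within mitochondria. Its gene MAE1 (YKL029C) had 8.34, 2.40 and 4.57 TPM with edelfosine, against 28.3, 24.2 and 19.2 TPM with vehicle, and fell by 2.13 ± 0.37 on log2 (SE, adjusted p = 0.00393). Among 4 genes that refill the cycle with oxaloacetate or draw it off to sugar synthesis, 3 rose and 1 fell (median 0.89), against 27.3% of all genes called in each direction. The pyruvate carboxylase genes, 85.6% identical in coding sequence, moved in opposite directions: PYC1 rose by 1.20 (adjusted p = 0.00345) and PYC2 fell by 1.07 (adjusted p = 0.0172). The call of PYC2 was lost in TPM as deposited (-0.49) and without vehicle replicate 1 or 2. PCK1, phosphoenolpyruvate carboxykinase (0.98, adjusted p = 0.00234), and FBP1, fructose bisphosphatase (0.81, adjusted p = 0.00588), rose.

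Carnitine carries acetyl units between peroxisome, cytosol and mitochondrion when they come from acetate or fatty acids. YAT1 (YAR035W), the outer mitochondrial carnitine acetyltransferase, had 1.04, 1.64 and 1.39 TPM with edelfosine, against 0.366, 0.366 and 0.470 TPM with vehicle (0.74 ± 0.15, SE, adjusted p = 0.00619). CRC1 (YOR100C), the carnitine carrier, had 2.82, 4.84 and 6.15 TPM with edelfosine, against 1.21, 1.35 and 2.80 TPM with vehicle (1.00 ± 0.19, SE, adjusted p = 0.00533). Both were low in all libraries. Of 3 further genes of the shuttle, 1 rose, 1 fell and 1 was not called (median 0.54), against 27.3% of all genes called in each direction. CAT2, the mitochondrial and peroxisomal acetyltransferase, rose, with 27.2 ± 4.32 TPM with edelfosine and 2.22 ± 0.417 TPM with vehicle (3.13, adjusted p = 0.000188). YAT2, a cytosolic one, fell by 0.76 (adjusted p = 0.0162), a call lost in TPM as deposited (-0.22) and without vehicle replicate 1 or 2.

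Of 9 transcription factor genes for carbon source and Hap regulation, 3 rose and 6 were not called (median 0.22), near the 27.3% of all genes called higher. The 3 that rose were HAP5, a subunit of the CCAAT-binding complex (1.68, adjusted p = 0.00103), ADR1 (1.51, adjusted p = 0.00115) and CAT8 (1.26, adjusted p = 0.00162). ADR1 and CAT8 are activators of genes for ethanol and acetate use. ADR1 averaged 5.19 ± 1.00 TPM with edelfosine and 1.17 ± 0.249 TPM with vehicle, and CAT8 averaged 3.13 ± 0.721 TPM with edelfosine and 0.709 ± 0.0797 TPM with vehicle (SD, n = 3 each). CAT8 reached the filter of 1 TPM as deposited in 0 vehicle libraries and ADR1 in 1, so both passed it through the edelfosine libraries. HAP4, the activating subunit of the complex, named here after its value was seen, averaged 49.7 ± 18.3 TPM with edelfosine and 49.2 ± 12.4 TPM with vehicle. HAP4 was not called, nor were the subunits HAP2 (0.87, adjusted p = 0.0551) and HAP3 (-0.083, adjusted p = 0.694), also named after their values were seen. Over all 7 lists, 28 of 50 genes rose, 8 fell and 14 were not called, with a median of 0.69, against 27.3% of all genes called in each direction. Of the 28, 11 were the succinate dehydrogenase genes, several of whose calls were lost in the W303 libraries alone.

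Over the 16 ratios computed, 7 of 9 between isozymes and 4 of 7 between subunits or partners did not overlap between the groups. Each of these 11 had the smallest possible exact permutation p of 0.1 (adjusted 0.145), so that no ratio could pass a threshold of 0.05 in this design. Ratios of other gene pairs were not computed, so no share over all pairs stands beside these counts. Among single genes, 30.3% lay without overlap above and 31.3% below, so separated groups were common.

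The strain of the culture was tested beside the treatment. BY4741 and W303 differed at an adjusted p under 0.05 in 0.421% of all genes (24) and in none of the 38; MDH2 was 2.08 higher on log2 in BY4741 (adjusted p = 0.0885) and MPC3 1.40 higher (adjusted p = 0.452). No gene of the 5707 (0%) had a strain-by-treatment interaction at an adjusted p under 0.05 in limma, and 176 (3.08%) had an unadjusted p under 0.05. Among the 38 these were 3, with differences of change (BY4741 minus W303, log2) of -2.58 for MPC3, -0.88 for SFC1 and -1.55 for IDP2. They rest on 1 BY4741 library in each group and 2 residual degrees of freedom, and strain and replicate number cannot be told apart. In the W303 libraries alone 21 of the 38 were called higher and 6 lower, against 21.1% and 21.3% of all genes.

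**Figure D4:**
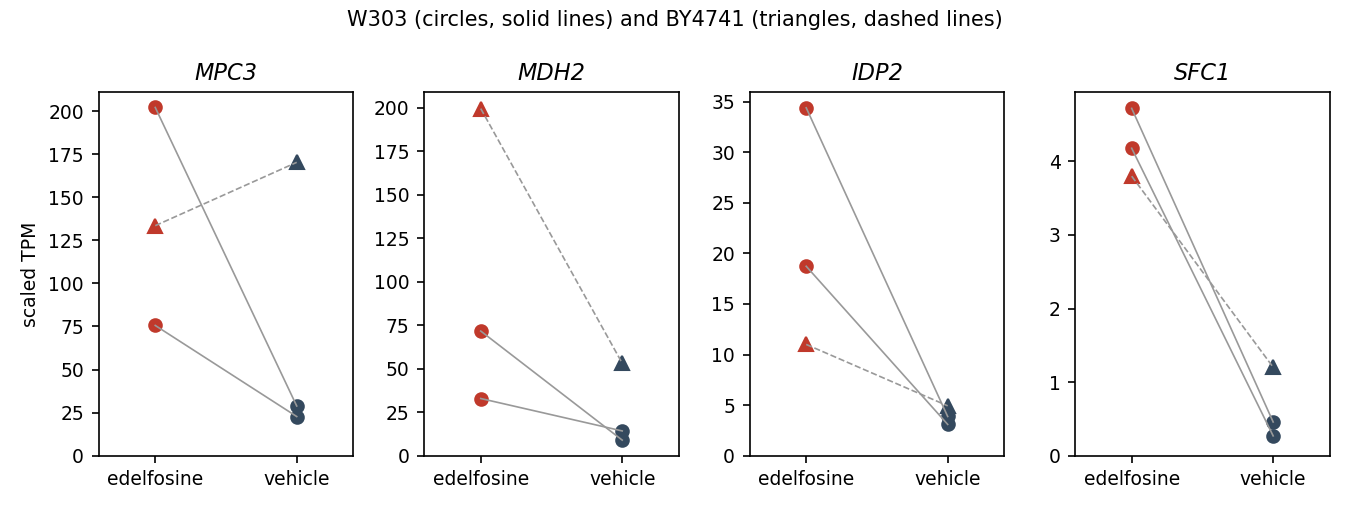
Levels of MPC3, MDH2, IDP2 and SFC1 in each library (scaled TPM, linear axes from 0), edelfosine left of vehicle; lines join same-numbered libraries, with replicate 3 from BY4741. MPC3 is at 134 TPM with edelfosine and 170.3 TPM with vehicle in BY4741, whereas both W303 pairs are higher with edelfosine.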

How the data were processed

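Poly(A) RNA libraries of 3 edelfosine and 3 vehicle cultures were analysed from 1 deposited table of TPM, with the same total in each column; per the submitters' processing notes the authors used kallisto and sleuth, with no version, transcript set or genome build named. TPM keep no depth, so no count model was used and log values were fitted with limma 3.58.1 in R 4.3.3. Rows of at least 1 TPM in at least 3 libraries (5707 of 5917) were scaled by trimmed-mean factors (30% of ratios and 5% of mean levels trimmed at each end), transformed as log2(scaled TPM + 1) and fitted with strain and treatment, a trended prior (prior degrees of freedom 3.41, residual 3) and Benjamini-Hochberg adjustment over all rows. The code of the fit was run on simulated data with the same noise in every gene, few changed genes and no strain effect. The real data differ in each respect, so that run does not give the error rate of the calls here. Symbols and sequences came from the R64 RefSeq annotation and genome, read with Python 3.11.15 and Biopython 1.88; 5911 rows matched a locus tag. Members are named except 1 that is not reported here and enters only counts and sums; of each further list, up to 4 called genes of smallest adjusted p and any called against the list's majority. Members and lists were chosen with earlier results of these data known. Alternatives changed scaling, pseudocount, filter, strain term, replicate block and libraries.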

Additional observations from a re-analysis of the deposited data

How the results depend on the processing

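Of the 27 called genes among the 38, 21 kept their direction and call in each of the 16 alternatives in which they were tested; the others were CIT3, IDP1, MDH2, ICL1, DAL7 and DIC1. With TPM as deposited 2837 genes were called higher and 760 lower, and 4 of the 38 and 5 of the 50 list genes were called lower. The sign then turned for IDH2 (0.49), RTG3 (0.25), CTP1 (0.28), LIP5 (0.14), summed citrate synthases (0.40) and the summed peroxisomal pair (0.29). Of the 27 called genes, 24 were still called in TPM as deposited and 23 without vehicle replicate 2. Without that library 2184 of all genes were called. When 1 library was left out, the counts among the 38 were 18 to 21 higher and 5 to 7 lower, and among the list genes 19 to 29 higher and 4 to 7 lower. Over all genes the counts were then 1085 to 1685 higher and 1099 to 1692 lower. In these fits log2 changes near 0 changed sign for RTG1 (-0.17 to 0.43), MPC1 (-0.073 to 0.17), PDX1 (-0.0038 to 0.32) and RTG2 (-0.0059 to 0.13). Without the strain term 18 of the 38 rose and 7 fell, with 2937 of all genes called. A minimum of 10 TPM left 33 of the 38, of which 15 were called higher and 7 lower, with 2455 of all 4066 genes tested called. Same-numbered libraries deviated together with correlations of 0.33, 0.052 and 0.51, which does not show pairing; with the replicate block 20 rose and 7 fell, and 3017 of all genes were called, against 1557 higher and 1557 lower without it. Every edelfosine library correlated best with the vehicle library of its number, for replicates 1 (0.33 against 0.32) and 2 (0.052 against 0.030) by small margins. Of 7 summed levels, 4 moved in TPM as deposited by more than the spread between replicates, beside the 2 that changed sign. A count test, foreseen only for a table of counts, was not run because the table holds TPM. Depth is unknown, and levels near 1 TPM (YAT1, MLS1, SFC1, CRC1, SDH9, CAT8, ADR1) are the least certain.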
